A study of Mus musculus with 8 samples.

Results

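The Pim kinases are a small family of serine/threonine kinases with 3 mouse genes, Pim1, Pim2 and Pim3. They were selected by their symbols in the array annotation. Pim1 and Pim2 each had 1 probe and Pim3 had none, so 2 of the 3 members were measured, among 15095 gene symbols and 21791 placed probes in all. Pim3 was not analysed here.

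Unlike most kinases, Pim proteins need no activating phosphorylation. They are active once made and are short-lived, so their activity follows the amount of transcript and protein. In blood cells, cytokine receptors of the class that includes the GM-CSF receptor signal through JAK2 and STAT5, and STAT5 drives transcription of Pim genes. The kinases then phosphorylate proteins of survival, cell cycle and translation, among them the death protein Bad, the cell cycle inhibitor p27 and the translational repressor 4E-BP1.

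The T cell line CTL-EN, of mouse origin, had been given the shared beta subunit (beta-c) of the human GM-CSF receptor. One population expressed its wild-type form and the other a form with a serine replaced by glycine (Ser585Gly). The 4 conditions were wild type at 0 h, Ser585Gly at 0 h, wild type at 12 h and Ser585Gly at 12 h. Every condition had first passed 12 h of factor deprivation in 0.5% serum, and the 12 h cells then had 12 h with human GM-CSF at 50 ng/mL. RNA was compared on 8 spotted arrays with 2 colours, arranged as a square whose 4 edges were the 2 changes with time and the 2 mutation comparisons. Every edge has an array for each of 2 dye orientations. The 12 h or the Ser585Gly RNA carried Cy5 on replicate 1 and Cy3 on replicate 2.

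What limits these cells as a model is that the receptor chain was introduced into 1 established line, and the labels do not say whether either population was a clone or a pool. They name no separate cultures or extracts. The dye orientations of an edge were therefore read as technical repeats, and p-values measure only the spread between hybridisations. The arrays used here hold no arm of continued culture for 12 h in the absence of GM-CSF, so the cytokine and time in culture cannot be told apart. Fewer cells that express a gene and less RNA per cell cannot be told apart in bulk RNA.

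The median spot of an array had a foreground of 631 to 946 in Cy5, while in Cy3 it had 795 to 1105. Of 12 T cell markers, 11 had a probe and 10 of these were brighter than the 95th percentile of empty wells. Thy1 and Cd3g stood at brightness percentile 98.6 of all spots and Cd3e at 97.0, whereas Cd4 (3.31) was not above the empty wells. Markers of myeloid cells, B cells, mast cells, erythroid cells and fibroblasts had median brightness percentiles of 25.5 to 46.6, against 84.0 for the T cell list. Every measured marker of those 5 lists was also above the empty wells, so that criterion does not tell the lists apart. The brightest of them were the fibroblast marker Col1a1 (86.3) and the erythroid marker Hba-a1 (76.1). Gene names rest on a print order recovered from the spots, because the deposited order of names follows another print. In the recovered order the Pim1 spot lay at brightness percentile 86.1 and the Pim2 spot at 91.0.

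The promoters of the measured members are shown because both genes rose between 0 h and 12 h. Each is the 250 bases before the first annotated start (RefSeq, GRCm38.p6, plus strand), with GC boxes (GGGCGG on either strand) in capitals. The Pim1 window is chr17:29490535-29490784 and the Pim2 window is chrX:7878056-7878305.
Pim1: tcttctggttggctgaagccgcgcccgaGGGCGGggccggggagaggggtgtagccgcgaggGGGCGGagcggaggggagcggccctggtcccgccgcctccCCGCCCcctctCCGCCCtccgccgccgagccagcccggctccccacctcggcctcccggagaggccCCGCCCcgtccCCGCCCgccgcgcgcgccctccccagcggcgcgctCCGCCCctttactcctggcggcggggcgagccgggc
Pim2: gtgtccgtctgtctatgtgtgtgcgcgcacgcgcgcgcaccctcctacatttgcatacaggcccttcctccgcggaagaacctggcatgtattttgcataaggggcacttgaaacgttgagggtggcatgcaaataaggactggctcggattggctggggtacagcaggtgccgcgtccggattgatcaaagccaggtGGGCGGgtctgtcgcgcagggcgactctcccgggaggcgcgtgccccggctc

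The Pim1 window held 7 GC boxes, with first letters at positions −222 to −36 counted from the start, and 82.4% of its bases were G or C. The Pim2 window held 1 GC box, at −52, and 62% of its bases were G or C. The median over 32851 windows of this length was 52.4%, and 32.7% of windows held a GC box. Neither window held the letters of a STAT site (TTCNNNGAA, in 7.02% of windows), an E-box (CACGTG, 6.02%) or a TATA box (TATAAA, 12.4%), each searched on both strands and with no overlap between these motifs. The annotation gives Pim1 another start downstream, whose window held 1 E-box, at −58 from that start, and none of the other motifs. These matches are of letters only, and a window without them says nothing of binding elsewhere. Pim1 spans chr17:29490785-29496111 and Pim2 spans chrX:7878306-7883432.

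Pim2 was low in both populations at 0 h and high in both at 12 h. Its level, a log2 normalised intensity, was read 4 times per condition. It had a lowest, median and highest reading of 9.58, 10.28 and 10.61 in wild type at 0 h. In Ser585Gly at 0 h these were 9.89, 10.57 and 11.34. In wild type at 12 h they were 13.15, 13.52 and 14.25, and in Ser585Gly at 12 h they were 12.98, 13.49 and 13.91. No 0 h reading reached any 12 h reading, and the populations overlapped at both times.

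For Pim1 the readings at 0 h and 12 h overlapped in wild type and did not in Ser585Gly. The lowest, median and highest readings were 10.03, 10.99 and 11.79 in wild type at 0 h and 10.76, 10.83 and 11.24 in Ser585Gly at 0 h. At 12 h they were 10.91, 12.23 and 13.08 in wild type and 11.49, 11.72 and 12.35 in Ser585Gly. On the arrays of the time edges alone, the 0 h readings were 10.03 and 10.52 in wild type and 10.87 and 10.76 in Ser585Gly. That order of the populations is opposite to the order on the 0 h mutation arrays, which compare them directly. The 12 h readings of the time edges were 10.91 and 11.59 in wild type and 11.49 on both Ser585Gly arrays. The foreground intensity of Pim1 from wild-type 0 h RNA was 3064 and 2524 on the mutation edge and 1173 and 1553 on the time edge. The labels do not say whether these edges shared an extract. Differences between arrays and between extracts cannot be told apart in these readings. All tests below therefore rest on the ratio of the 2 RNAs on 1 array.

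**Figure D1:**
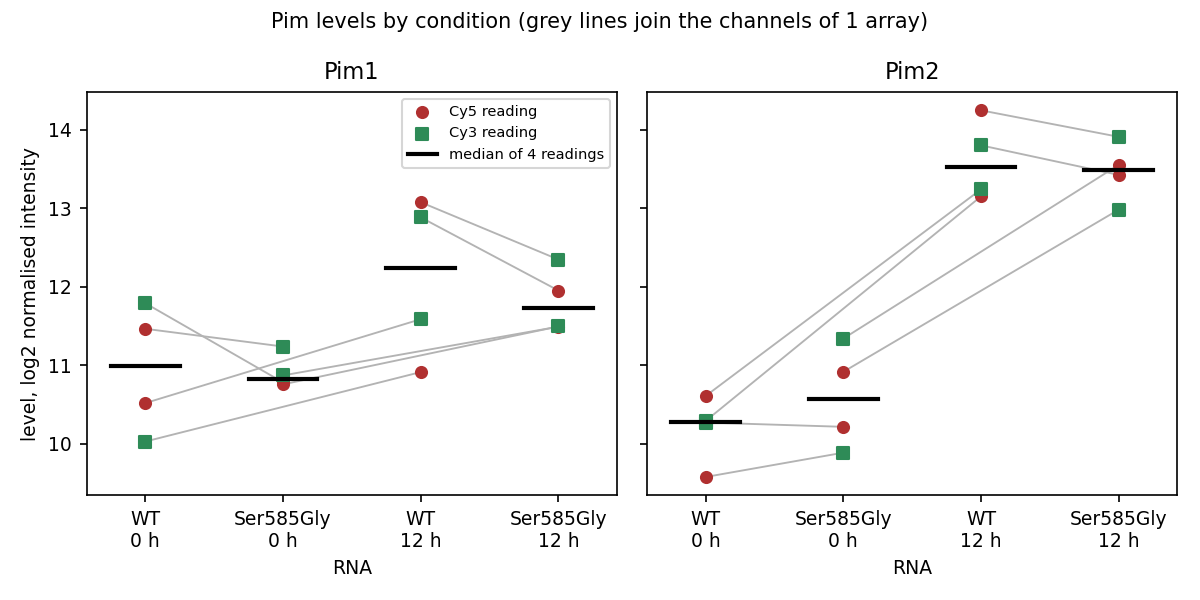
Normalised log2 intensity of Pim1 (left) and Pim2 (right) in the 4 conditions, with 4 readings each. Red circles are Cy5, green squares are Cy3, a black bar is the median and a grey line joins the channels of 1 array. Pim2 readings at 12 h (12.98 to 14.25) all lie above those at 0 h (9.58 to 11.34), whereas Pim1 readings of different arrays overlap although each grey line between 0 h and 12 h rises.

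In wild-type cells the question was how the transcripts changed between factor deprivation and 12 h with GM-CSF. On replicate 1 the Pim2 spot read 10065 in the 12 h channel and 1285 in the 0 h channel. On replicate 2 it read 10116 and 1620. The normalised log2 ratios of 12 h over 0 h were 2.86 and 2.63, so both orientations showed a large increase. Over all 8 arrays Pim2 rose by 2.72 ± 0.11 (log2 ratio ± SE, n = 8 arrays; 95% confidence interval 2.46 to 2.97), or 6.57-fold (adjusted p = 7.00e-05, limma with Benjamini-Hochberg adjustment over all probes).

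This was the highest log2 ratio of the 21791 probes in that comparison. It stayed the highest in 15 of 21 alternative analyses that kept the recovered names, and ranked between 1 and 3 in all 21. Averaging dye-swap pairs, treating edges as random blocks, dropping the dye term or using a trended prior left the log2 ratios unchanged. In these the rank could not move, and leaving out dim probes also kept the Pim2 ratio.

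Pim1 rose less. It read 2288 at 12 h and 1173 at 0 h on replicate 1, and 3546 and 1553 on replicate 2, with log2 ratios of 0.88 and 1.07. The estimate was 0.96 ± 0.12 (SE, n = 8 arrays; interval 0.68 to 1.23), or 1.94-fold (adjusted p = 0.00254, limma), and ranked 186 from the highest. Both measured Pim genes thus passed as higher (2 of 2), where 5.46% of all probes did and 4.03% passed as lower.

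In Ser585Gly cells Pim2 read 14800 at 12 h and 3091 at 0 h on replicate 1, and 8712 and 2178 on replicate 2. The log2 ratios were 2.21 and 2.07. Pim2 rose by 2.17 ± 0.11 (SE, n = 8 arrays; interval 1.91 to 2.43), or 4.50-fold (adjusted p = 0.000148, limma), and ranked 6 from the highest (4 to 8 in the 21 alternatives). Pim1 read 3632 and 2406 on replicate 1 and 3400 and 2005 on replicate 2, for log2 ratios of 0.62 and 0.74. Its estimate was 0.70 ± 0.12 (SE, n = 8 arrays; interval 0.43 to 0.97), or 1.62-fold (adjusted p = 0.00857, limma), with rank 514. Again 2 of 2 passed as higher, against 5.77% of all probes (4.73% passed as lower). The Pim1 call was lost without replicate 1 of this edge (0.64, adjusted p = 0.134). With each dye-swap pair averaged to 1 value, the calls of both genes in both populations were kept (adjusted p from 0.00199 to 0.0255, limma).

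**Figure D2:**
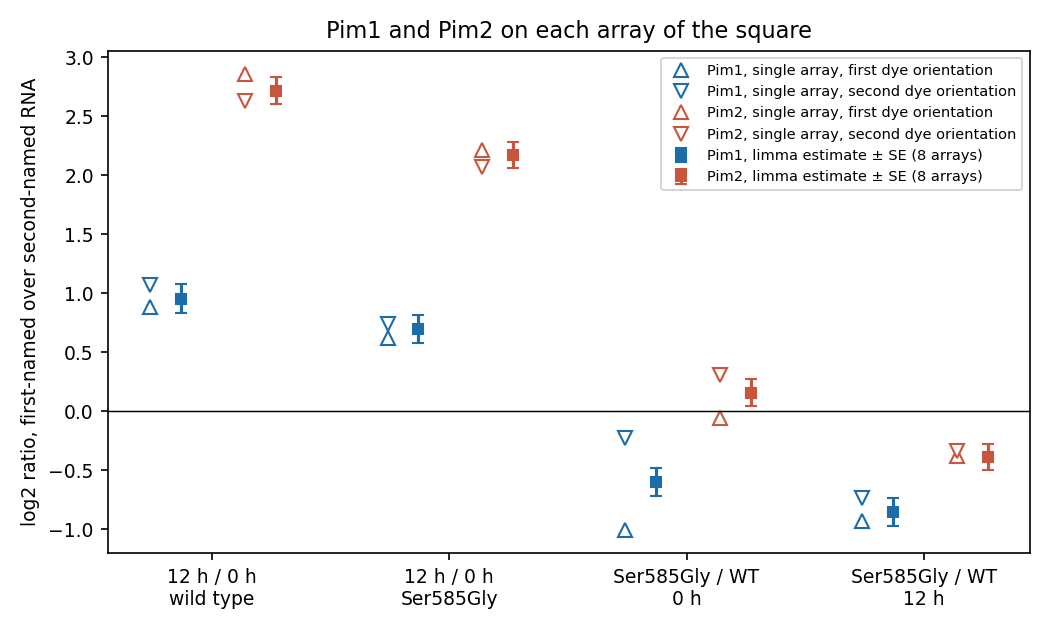
Log2 ratio of Pim1 (blue) and Pim2 (red) for each edge of the square, with an open triangle for each dye orientation and a filled square with a bar for the limma estimate ± SE over 8 arrays. Pim2 lies at 2.72 and 2.17 and Pim1 at 0.96 and 0.70 for 12 h over 0 h, Pim1 lies below 0 on all 4 mutation arrays, and the orientations of Pim1 at 0 h lie far apart (−1.01 and −0.23).

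The size of the increase differed between the genes on every array. Pim2 exceeded Pim1 by 1.98 and 1.56 on the wild-type arrays and by 1.59 and 1.33 on the Ser585Gly arrays (log2 difference of their ratios). The mean difference was 1.62 ± 0.27 (SD, n = 4 arrays), higher for Pim2 in 4 of 4. An exact two-sided sign-flip permutation test over the 4 arrays, for the 1 pair compared, gave the smallest p that 4 arrays allow, which lies above 0.05. It flipped arrays of the same edge separately, although these were read as technical repeats, and it could not pass whatever the values. It therefore cannot decide whether the genes differ. Each gene had 1 probe, so the difference rests on 2 spots.

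At 0 h, before GM-CSF, the mutation estimates were −0.60 for Pim1 and 0.16 for Pim2, and the difference between the genes was not tested. Pim1 read 1681 in Ser585Gly and 3064 in wild type on replicate 1, but 2234 and 2524 on replicate 2. The log2 ratios of Ser585Gly over wild type were −1.01 and −0.23, of the same sign but far apart. Pim1 was lower in Ser585Gly by the estimate of −0.60 ± 0.12 (SE, n = 8 arrays; interval −0.87 to −0.32), or 1.51-fold (adjusted p = 0.0346, limma). Of the 2 measured members 1 passed as lower and 0 as higher, against 2% and 2.07% of all probes.

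The Pim1 call at 0 h depended on single arrays. It was lost when each dye-swap pair was averaged to 1 value (adjusted p = 0.0683) and when any of 7 of the 8 arrays was left out. The estimates without 1 array ran from −0.75 to −0.41, with adjusted p from 0.0463 to 0.12. The exception was replicate 2 of the time edge in Ser585Gly, without which it was kept. The size also depended on the processing. It was −0.34 from the deposited log2 values and −0.33 with print-tip loess (adjusted p = 0.0328 and 0.0444, limma). Ratios of replicate 1 of the 0 h mutation edge correlated with the deposited ones at 0.655, against 0.848 to 0.936 on the other arrays.

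Pim2 did not pass at 0 h. It read 1142 in Ser585Gly and 1184 in wild type on replicate 1, and 1038 and 708 on replicate 2, and the log2 ratios were −0.05 and 0.31. The estimate was 0.16 ± 0.11 (SE, n = 8 arrays; interval −0.10 to 0.42; adjusted p = 0.431, limma). It passed as higher from the deposited log2 values (0.37, adjusted p = 0.00536) and with print-tip loess (0.54, adjusted p = 0.0308). The fitted estimate at 0 h was positive in all of these, whereas the single ratio of replicate 1 was −0.05.

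At 12 h with GM-CSF, Pim1 was again lower in Ser585Gly. It read 4701 in Ser585Gly against 9119 in wild type on replicate 1 and 5448 against 9020 on replicate 2. The log2 ratios were −0.93 and −0.73, which lie closer together than those at 0 h. The estimate was −0.85 ± 0.12 (SE, n = 8 arrays; interval −1.13 to −0.58), or 1.80-fold lower (adjusted p = 0.0121, limma), and ranked 78 from the lowest. It was kept with pairs averaged (adjusted p = 0.0411) and lost without replicate 1 (adjusted p = 0.113) or replicate 2 (adjusted p = 0.164) of that edge.

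Pim2 read 12423 in Ser585Gly and 16044 in wild type on replicate 1 at 12 h, and 15015 and 20337 on replicate 2. The log2 ratios were −0.38 and −0.34, both negative and close together. The estimate was −0.39 ± 0.11 (SE, n = 8 arrays; interval −0.65 to −0.13; unadjusted p = 0.00815, adjusted p = 0.17, limma), so Pim2 did not pass. It passed from the deposited log2 values (−0.37, adjusted p = 0.00598) and with edges as random blocks (adjusted p = 0.0408). The random-block fit used an estimated correlation of −0.326 between arrays of an edge. With pairs averaged Pim2 did not pass (adjusted p = 0.268, limma). At 12 h, 1 of 2 members was called lower and 0 higher, against 0.798% and 0.918% of all probes.

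Whether the increase itself differed between the receptor forms was tested by the interaction of mutation and time. For Pim2 the change in Ser585Gly minus that in wild type was −0.55 ± 0.13 (SE, n = 8 arrays; interval −0.84 to −0.25; unadjusted p = 0.00271, adjusted p = 0.412, limma). For Pim1 it was −0.26 ± 0.14 (interval −0.57 to 0.06; unadjusted p = 0.0989, adjusted p = 0.756, limma). Neither passed, and 0.0551% of all probes did. From the deposited log2 values Pim2 did pass (−0.74, adjusted p = 0.00547), and Pim1 did not (−0.56, adjusted p = 0.0557). The estimates of both genes were negative, and in the other 20 alternatives that kept the recovered names Pim2 did not pass.

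Ordered by the fit, Pim1 was highest in wild type at 12 h, followed by Ser585Gly at 12 h, wild type at 0 h and Ser585Gly at 0 h. The middle neighbours did not differ beyond their error, with Ser585Gly at 12 h above wild type at 0 h by 0.10 ± 0.14 (interval −0.21 to 0.42; adjusted p = 0.687, limma). The ends of the order differed 2.93-fold, with Ser585Gly at 0 h against wild type at 12 h at −1.55 ± 0.14 (adjusted p = 0.0005, limma; 13.1% of all probes passed in either direction). For Pim2 the order was wild type at 12 h, Ser585Gly at 12 h, Ser585Gly at 0 h and wild type at 0 h. Its pairs within a time are the mutation comparisons above, which did not pass. Ser585Gly at 12 h stood above wild type at 0 h by 2.33 ± 0.13 (adjusted p = 0.00015, limma), where 8.76% of all probes passed in either direction.

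Because the 4 edges form a closed path, the direct ratios should sum to 0 around it. They left 0.08 for Pim1 and 0.12 for Pim2 (log2), against a standard deviation of 0.365 over all probes. The dye term was −0.16 ± 0.07 for Pim1 (unadjusted p = 0.0469, adjusted p = 0.264, limma) and −0.00361 for Pim2.

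The probes whose 8 ratios of Cy5 over Cy3 most resembled those of each gene are given as a description, since all ratios share arrays and dyes. For Pim2 they were Akr1c13, an aldo-keto reductase (Pearson r = 0.997), Sf3a2, a splicing factor subunit (0.994), Trbv1, a T cell receptor beta variable segment (0.994), Clic4, an intracellular chloride channel protein (0.993), and Fam227a (0.992). Akr1c13 alone came near the size of the Pim2 change, with log2 ratios of 2.49 in wild type and 2.10 in Ser585Gly. Clic4 stood at 1.17 and 0.89, and Sf3a2 at 0.54 and 0.46. For Pim1 they were Tcrb-V8.2, another receptor segment (0.986), Tsr3, a ribosome maturation protein (0.985), Eif4ebp1 (0.984), Csn1s1, a casein (0.983), and Prrc2a (0.981).

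Csn1s1 was higher at 12 h by 1.45 in wild type and 0.99 in Ser585Gly. It was lower in Ser585Gly by the log2 ratios of −0.70 at 0 h (adjusted p = 0.0128) and −1.16 at 12 h (adjusted p = 0.00152, limma), the signs of Pim1. With pairs averaged the 0 h call was lost (adjusted p = 0.0582) and the 12 h call was kept (adjusted p = 0.0166). Probes for receptor segments can also bind related segments. Pim1 and Pim2 correlated with each other at 0.786 over the 8 arrays. By Spearman correlation other genes came first, and none of the genes above was among them.

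The other genes of the pathway were taken from lists, with the brightest probe of a gene. Upstream of Pim, 16 of 19 receptor and JAK-STAT genes had a probe. Between 0 h and 12 h, 1 rose and 0 fell in wild type (5.46% and 4.03% of all probes), where 7 had an unadjusted p under 0.05. In Ser585Gly 1 rose and 1 fell (5.77% and 4.73% of all probes), and 0 did with pairs averaged or without either array of that edge. With the deposited log2 values or print-tip loess 5 fell in wild type. The median log2 ratio was −0.25 in wild type and −0.22 in Ser585Gly, against −0.01 and 0.01 over all probes. Il7r, the interleukin-7 receptor alpha chain, rose by 0.61 ± 0.11 in wild type (SE, n = 8 arrays; adjusted p = 0.0115, limma). Its spot was dim (brightness percentile 9.43), and it lost the call without either array of that edge (adjusted p up to 0.142). Stat5a, which carries the receptor signal to the Pim genes, stood at −0.44 and Jak2 at −0.47 in wild type, and neither passed (adjusted p = 0.151 and 0.0873, limma). None of the list was called for the mutation at either time, where 5 at 0 h and 1 at 12 h had an unadjusted p under 0.05. With the deposited log2 values 3 were called higher and 1 lower at each time. When the mutation array at 0 h of replicate 1 was left out, 2 fell in wild type, and 2 rose and 4 fell in Ser585Gly with time.

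The STAT5 target list held other target genes of the same transcription factor, listed with no direction of its effect. Of 13 measured of 14, 7 rose and 1 fell in wild type, where 5.46% of all probes rose and 4.03% fell. In Ser585Gly 8 rose and 1 fell, where 5.77% of all probes rose and 4.73% fell. The median log2 ratio was 0.55 in wild type and 0.66 in Ser585Gly. Lta, which encodes lymphotoxin alpha, rose by 2.12 and 2.10. Cish, whose product damps signalling of cytokine receptors, rose by 2.06 in both. Il2ra, the interleukin-2 receptor alpha chain, rose by 1.81 and 1.92, and Gadd45g, a growth arrest and stress protein, by 1.34 and 1.15. Their adjusted p was at most 0.00428 (limma).

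The interaction estimates, the change in Ser585Gly minus that in wild type, were 0.00 for Cish, −0.01 for Lta, 0.11 for Il2ra and −0.18 for Gadd45g. That of Pim2 was −0.55 without passing (adjusted p = 0.412, limma). Over the 13 genes they ran from −0.25 for Bcl6 to 0.30 for Id1, whose spot was not above the empty wells. None of the 13 genes passed the interaction test (limma), and 0 had an unadjusted p under 0.05. The list's counts of genes that rose were 6 and 8 with dye-swap pairs averaged. They were 5 in wild type without either array of that edge, and 4 in Ser585Gly without replicate 1 of its edge, where Gadd45g lost its call (adjusted p = 0.0509). Bcl6, a transcriptional repressor, was the member that fell (−1.13 and −1.39), and it lost the call without replicate 2 in wild type and without either array in Ser585Gly.

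**Figure D3:**
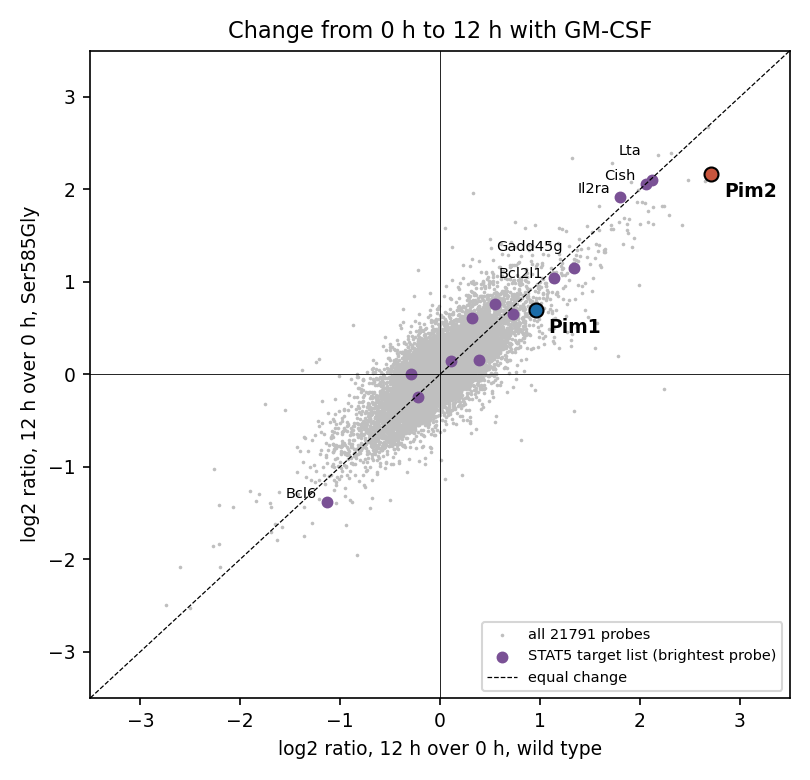
Log2 ratio of 12 h over 0 h in wild type (horizontal) and in Ser585Gly (vertical) for all 21791 probes (grey), the STAT5 target list (purple), Pim1 (blue) and Pim2 (red), with equal change as a dashed line. Pim2 has the highest horizontal value (2.72) and lies below the dashed line (2.17), whereas Lta (2.12 and 2.10) and Cish (2.06 and 2.06) lie on it. The interaction of Pim2 did not pass (adjusted p = 0.412, limma).

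With the mutation, 2 STAT5 targets were called lower and 0 higher at each time, the same 2 genes, where 2% of all probes at 0 h and 0.798% at 12 h were lower. Cish stood at −0.70 at both times (adjusted p = 0.0166 at 0 h and 0.0219 at 12 h, limma). Bcl2l1, which encodes the survival protein Bcl-xL, stood at −0.51 and −0.60 (adjusted p = 0.0345 and 0.0265, limma). Both were chosen after their values were seen. None of these calls was kept with pairs averaged (adjusted p from 0.0539 to 0.120), and each was lost without either array of its own edge. The list median was −0.17 at 0 h and −0.14 at 12 h. Lta was at −0.60 and −0.61 without passing (adjusted p = 0.0717 and 0.119, limma). Pim1 was called lower at both times as well, whereas the Pim2 estimate was above 0 at 0 h and below 0 at 12 h, without a call.

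**Figure D4:**
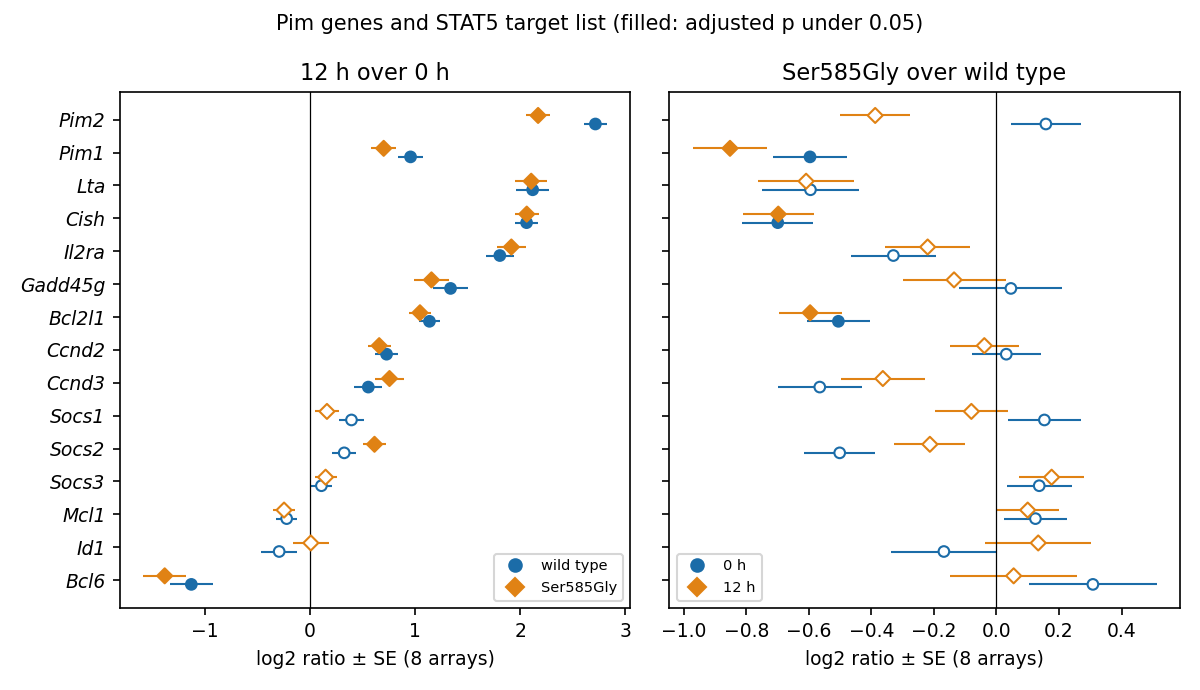
Log2 ratio ± SE (limma, 8 arrays) of Pim2, Pim1 and the 13 measured STAT5 target genes for 12 h over 0 h (left, circles wild type, diamonds Ser585Gly) and Ser585Gly over wild type (right, circles 0 h, diamonds 12 h), filled where the adjusted p was under 0.05. Pim2 leads the left panel at 2.72, and in the right panel filled symbols occur for Pim1, Cish and Bcl2l1, all between −0.85 and −0.51.

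Downstream of Pim, all 25 substrates and partners had a probe. Pim kinases act on these as proteins, whereas the arrays read transcripts, so Pim activity was not measured. In wild type 4 rose and 2 fell (5.46% and 4.03% of all probes), and in Ser585Gly 5 rose and 5 fell (5.77% and 4.73%). The median log2 ratios were −0.08 and −0.06. Cdkn1b, which encodes the cell cycle inhibitor p27, fell, with log2 ratios of −1.29 in wild type and −1.60 in Ser585Gly (adjusted p = 0.00026 and 0.000148, limma). Eif4ebp1, which encodes the translational repressor 4E-BP1, rose by 0.83 and 0.62. Cdc25a, a phosphatase that activates cyclin-dependent kinases, rose by 0.81 and 0.82, and Akt1s1, which encodes the mTOR inhibitor PRAS40, by 0.52 and 0.53. Akt1s1 lost both calls with pairs averaged (adjusted p = 0.064 and 0.0546). Cdc25a in wild type and Eif4ebp1 in Ser585Gly lost theirs without either array of that edge (adjusted p up to 0.108 and 0.158), and Cdc25a in Ser585Gly without replicate 1 (adjusted p = 0.112). Bad, the best known death substrate of these kinases, was at −0.05 and 0.03 and did not pass (adjusted p = 0.826 and 0.901, limma).

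These counts depended on single arrays. With 1 array left out in turn, 1 to 4 rose and 1 to 3 fell in wild type, with 1 and 1 without either array of that edge. In Ser585Gly 0 to 5 rose and 1 to 5 fell, with 0 and 1 without replicate 1 of its edge. With pairs averaged they were 2 and 1 in wild type and 4 and 3 in Ser585Gly.

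With the mutation, 2 substrates were higher and 1 lower at 0 h (2.07% and 2% of all probes), and 1 was higher and 2 were lower at 12 h (0.918% and 0.798%). All are named, after their values were seen. Myc, the transcription factor that Pim kinases stabilise, was at −1.18 at 0 h (adjusted p = 0.00224) and −0.77 at 12 h (adjusted p = 0.0176, limma). Myb, a transcription factor of immature blood cells, was higher by 1.0 at 0 h (adjusted p = 0.00146) and 0.57 at 12 h (adjusted p = 0.0215, limma). Cdkn1b was higher by 0.46 at 0 h (adjusted p = 0.0375), and Eif4ebp1 was at −0.56 at 12 h (adjusted p = 0.0447, limma). With pairs averaged the 0 h calls of Myc (adjusted p = 0.0173) and Myb (adjusted p = 0.0214) were kept and the other 4 calls were lost, with adjusted p from 0.0691 to 0.137. Leaving out any 1 array did not end the 0 h calls of Myc (adjusted p up to 0.0394) and Myb (adjusted p up to 0.0273).

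None of 10 measured genes (of 14 listed) of Pim protein stability and translation was called in any of the 4 comparisons by limma. This list holds chaperones, the phosphatase that destabilises Pim proteins and cap-dependent translation factors. The Hsp90 genes Hsp90aa1 and Hsp90ab1 had no probe, nor did Hspa1b and Eif4g1, so nothing is known of them here. The chaperone genes measured were Cdc37, Hspa1a and Hspa8. Its counts of genes with an unadjusted p under 0.05 were 2, 2, 4 and 1 for time in wild type, time in Ser585Gly, the mutation at 0 h and the mutation at 12 h. With dye-swap pairs averaged 0 were called in each of the 4. Over all alternatives with the recovered names, at most 1 rose and 2 fell in wild type, 2 rose and 1 fell in Ser585Gly, 1 was higher and 2 were lower with the mutation at 0 h, and 0 were called at 12 h.

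The Akt and mTOR list holds the kinases that act beside Pim on the same substrates, and 13 of its 17 genes had a probe. In wild type 2 rose and 1 fell (5.46% and 4.03% of all probes), and in Ser585Gly 2 rose and 2 fell (5.77% and 4.73%), with medians of −0.02 and −0.08. Pik3ip1, an inhibitor of phosphoinositide 3-kinase, fell, with log2 ratios of −2.21 in wild type (adjusted p = 7.00e-05) and −1.83 in Ser585Gly (adjusted p = 0.000148, limma). Pik3cg, a catalytic subunit of that kinase, rose by 0.81 (adjusted p = 0.0455) and 1.28 (adjusted p = 0.00707, limma), and Rptor, the mTOR partner Raptor, by 0.49 in wild type (adjusted p = 0.0247, limma). The last and Pik3cg in wild type lost their calls in 10 and 11 of 21 alternatives, and no gene of the list rose in wild type without replicate 1 of either time edge or without either array of the mutation edge at 12 h. In Ser585Gly none rose without replicate 1 of its edge.

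With the mutation 3 genes of that list were higher at 0 h and 2 at 12 h (2.07% and 0.918% of all probes), and none was lower. They were Rps6kb2, a ribosomal S6 kinase (0.71 and 0.75), Pik3ip1 (0.51 and 0.89) and, at 0 h, Pik3r1, the regulatory subunit p85 alpha (0.61), named after their values were seen. With pairs averaged the call of Pik3ip1 at 12 h was kept (adjusted p = 0.0369) and the others were lost. Without its own replicate 1 that call was lost too (adjusted p = 0.0791). None of the 77 measured genes of the 5 lists passed the interaction test (limma), and 7 had an unadjusted p under 0.05.

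Of 28 measured markers of the 5 other cell types, 1 fell and 0 rose with time in each population (limma), where 2 in wild type and 3 in Ser585Gly had an unadjusted p under 0.05. Over all probes 4.03% fell and 5.46% rose in wild type, and 4.73% and 5.77% in Ser585Gly. The member that fell was the globin gene Hba-a1 (−0.45 and −0.49). With the mutation 1 of the 28, the macrophage marker Cd68, was higher at both times (0.51 and 0.60), where 7 at 0 h and 6 at 12 h had an unadjusted p under 0.05. Over all probes 2.07% were higher and 2% lower at 0 h, and 0.918% and 0.798% at 12 h. With dye-swap pairs averaged, neither the erythroid list nor the myeloid list held a call in these comparisons (limma). The myeloid list at 0 h held 0 calls whichever array was left out, and at 12 h it held 1 only with replicate 1 of the 0 h mutation edge left out. The erythroid list held 0 in Ser585Gly without either array of that edge, and in wild type it held 1 only with replicate 1 of the 0 h mutation edge left out, or replicate 2 of the Ser585Gly time edge. Of the 11 measured T cell markers, 0 rose and 2 fell with time in each population (5.46% and 4.03% of all probes in wild type, 5.77% and 4.73% in Ser585Gly). Their median log2 ratio was −0.03 in wild type and 0.02 in Ser585Gly, beside −0.01 and 0.01 over all probes. Cd3e, a chain of the receptor complex, fell by 0.84 in wild type and 0.90 in Ser585Gly and Cd3g, another chain, by 0.71 and 0.72. With pairs averaged 2 again fell in each population, whereas without replicate 1 of the Ser585Gly time edge 0 fell in Ser585Gly, and without either array of the wild-type time edge 1 fell in wild type. With replicate 1 of the 0 h mutation edge left out, 3 fell and 1 rose in each population. With replicate 1 of the 12 h mutation edge left out, 1 rose in wild type. Thy1, a surface glycoprotein of T cells, stood at 0.66 and 0.64 (limma, adjusted p = 0.0750 and 0.0766).

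The summed normalised intensity of the 11 T cell markers ran from 45646 to 100444 in wild type at 0 h and from 44391 to 99198 in wild type at 12 h. In Ser585Gly it ran from 86576 to 103358 at 0 h and from 67659 to 97131 at 12 h. That of the 7 myeloid markers ran from 4151 to 11160 and 4360 to 12263 in wild type, and from 3289 to 5334 and 4541 to 5763 in Ser585Gly. The sum of the 6 mast cell markers ran from 3935 to 4208 and 3610 to 11844 in wild type. In Ser585Gly that sum ran from 3658 to 3914 and 3189 to 23114, so single readings at 12 h were far above the rest. For the 5 B cell markers it ran from 1826 to 4715 and 1849 to 10191 in wild type. It ran from 1657 to 2782 and 1920 to 2506 in Ser585Gly. These ranges overlap between 0 h and 12 h in each population. The part of these levels in the Pim values was not tested.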

How the data were processed

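The scanner files hold foreground and local background intensity per dye, in intensity units per the file headers. The sources used here do not give how these were made. A table of values, also deposited, holds log2 ratios of Cy5 over Cy3 made by the authors; limma is named in the submitters' processing notes. Each array has 23040 spots in 48 blocks. The number of arrays limits the precision.

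Table rows were placed on spots through their numbered positions and checked against the ratios of all 8 arrays. For 90.3% of 21791 non-control probes no other spot was closer by values, and 6 probes were dropped. Names follow a recovered print with 24 pins, chosen after the data were seen. The median brightness percentile of 244 empty wells was 1.33 under it, against 47.2 under the names as deposited. One symbol was given to 16647 probes, several to 137 and none to 5007.

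Background was corrected by normexp (offset 50) and arrays were normalised by loess (span 0.3, no weight on controls). One fit over the 8 arrays, with mutation, time, interaction and dye as terms, was made in limma 3.58.1 (R 4.3.3). It had 4 residual degrees of freedom and 4.35 from the prior, and tests were two-sided with Benjamini-Hochberg adjustment over 21791 probes and a threshold of 0.05. The script was tested on simulated data. Levels are single-channel log2 intensities after Aquantile. Samples were grouped by their labels.

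The genes named are both Pim probes and up to 4 genes per list past the threshold with the largest change in wild type. The 5 probes most like each Pim gene by Pearson correlation are named too. Every other gene named that had a probe was chosen after its values were seen. Members, lists and tests were chosen with earlier results of these data known. The alternatives tried were other sources of ratios, backgrounds, normalisations, replicate structures, priors, name orders and the omission of dim probes or of each array.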

Additional observations from a re-analysis of the deposited data

How the results depend on the processing

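With the deposited order of names, Pim1 stood at −0.16 in wild type and −0.032 in Ser585Gly for 12 h against 0 h, a change of sign, and at −0.26 and −0.13 for the mutation at 0 h and 12 h, without a call. Pim2 stood at 0.29 and 0.26 for time, without a call. These are other spots. All remaining results kept the recovered names.

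For the mutation at 0 h, Pim1 lost its call with pairs averaged or no dye term (−0.60 in each, adjusted p = 0.0683 and 0.0810, limma) and with the direct arrays only (−0.62, adjusted p = 0.0993). At 12 h it lost it with the direct arrays only (−0.83, adjusted p = 0.0607). Pim2 gained a call from the deposited log2 values at 0 h (0.37), at 12 h (−0.37) and for the interaction (−0.74), with print-tip loess at 0 h (0.54) and with random blocks at 12 h (−0.39). The cause was not tested.

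Without 1 array, Pim1 ran from 0.89 to 1.02 and 0.64 to 0.79 for time in wild type and Ser585Gly, −0.75 to −0.41 and −0.91 to −0.79 for the mutation at 0 h and 12 h, and −0.38 to −0.15 for the interaction. Pim2 ran from 2.60 to 2.78, 2.12 to 2.25, 0.05 to 0.31, −0.42 to −0.34 and −0.65 to −0.47 in the same order. Counts of probes called moved most, from 413 to 4192 for time in wild type (2068 here), 269 to 4319 in Ser585Gly (2287), 110 to 3382 and 68 to 2209 for the mutation at 0 h (886) and 12 h (374), and 0 to 88 for the interaction (12). Levels without Aquantile moved by less than the spread between readings. No paired analysis was possible because the labels give no replicate numbers that link arrays of different edges; the numbers used here only name the dye orientations.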
